A study of Mus musculus with 10 samples.

Results

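Actin bundling proteins cross-link actin filaments into the stiff parallel bundles that fill microvilli. The genes described here are 10 that code for such proteins or for their relatives. They are the villin family members Vil1, Avil and Vill, the plastins Pls1, Pls3 and Lcp1, espin (Espn), fascin (Fscn1), and Eps8 with its relative Eps8l3. They were found by symbol among the 43432 Ensembl gene identifiers of the count files, through a GRCm38 gene annotation, and each of the 10 matched 1 identifier. All 10 were among the 19281 genes that passed the filter on low counts.

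RNA-seq had been made from epithelial cells sorted from naive male mice of 12 weeks, 1 mouse per library. All mice, those behind the control cells included, had the strain label C57BL6.Il25(Flare25/Flare25), so they carried on both chromosomes the allele Flare25, in which Il25, a cytokine gene of tuft cells, drives a fluorescent reporter. Live CD45-, EPCAM+ cells were split on the reporter. The epithelium group (3 libraries, numbered 1 to 3, of 52000 to 57000 cells) was the Flare25- fraction of the small intestine (SI in the plots). The intestinal tuft group (3 libraries, numbered 2 to 4, of 35000 to 36000 cells) was the Flare25+ fraction of the same organ, and the thymic tuft group (4 libraries of 1350 to 1900 cells) was the Flare25+ fraction of the thymus. No reporter-negative thymic epithelium was sequenced in the libraries used here. Intestinal cells were released with dithiothreitol and EDTA, whereas thymic cells were released with enzymes and a Percoll gradient. Organ, dissociation and cell number therefore change together in every comparison with the thymus and cannot be told apart. Mitochondrial genes held 18.6% to 23.7% of the counts in intestinal epithelium, 24.1% to 33.5% in intestinal tuft and 4.38% to 5.97% in thymic tuft libraries. The cause of this difference was not tested.

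Tuft cells are rare chemosensory epithelial cells with long, blunt apical microvilli whose actin cores reach deep into the cell. In the brush border of ordinary intestinal cells, villin, plastin 1 and espin cross-link these cores, and Eps8 sits at the microvillus tips, where it caps and bundles filaments. Advillin, the product of Avil, is a close relative of villin known from sensory neurons and from tuft cells. Lcp1 codes for L-plastin, the plastin of blood cells, and Fscn1 for fascin, the bundler of filopodia and of mature dendritic cell processes.

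The libraries held 38659882 to 73574745 counts, so 3 counts, the floor used here, correspond to 0.0433 to 0.0817 counts scaled to library size (CPM, the usual unit of relative abundance). The labels were checked against defining markers. The summed level of 12 tuft cell markers was 123 to 202 CPM in intestinal epithelium, 12346 to 15320 CPM in intestinal tuft and 4927 to 5857 CPM in thymic tuft libraries. Krt5, Fezf2 and 4 further markers of medullary thymic epithelium summed to 1164 to 1385 CPM in thymic tuft libraries and to 0.191 to 0.583 CPM in intestinal tuft libraries. The reporter-negative epithelium had high levels of secretory cell markers, with 7 goblet cell markers summing to 108000 to 117420 CPM (Muc2 and Zg16 the highest, at 31325 ± 1430.1 and 26961 ± 1606), 6 Paneth cell markers to 12460 to 16079 CPM and 8 enteroendocrine markers to 9983 to 14127 CPM, against at most 2819, 547 and 1172 CPM in intestinal tuft libraries and 2711, 367 and 244 CPM in thymic ones. Enterocyte markers did not separate the intestinal fractions in this way. The sum of 10 of them was 31929 to 35689 CPM in intestinal tuft libraries, above the 16705 to 18258 CPM of intestinal epithelium. In thymic tuft libraries it was 213 to 428 CPM. The part of enterocytes in the intestinal tuft fraction was not tested. Each intestinal epithelium library carried a small share of the counts of mainly 1 thymic library, 0.442% to 0.587% over 281 genes. Fitted shares of the other thymic libraries were at most 0.0590% and were left in. In the other direction the share was 0.876% to 0.956% over 8 genes. All fits were therefore repeated without the share of that 1 library in each direction. Values for Vill, Avil, Pls3, Lcp1, Fscn1 and Eps8l3 are given beside their results. In such bulk samples, fewer cells of a type and less RNA per cell cannot be told apart.

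Vil1 leads its family in intestinal epithelium, Avil leads it in thymic tuft cells, and Fscn1 is high in thymic tuft cells and low elsewhere. The bases just before their annotated transcript starts are shown because the results turn on these 3 genes. They come from the RefSeq promoter table (GRCm38.p6, plus strand), which holds 9 of the 10 members, and lie at chr1:74409134-74409375 (Vil1), chr10:127000459-127000708 (Avil) and chr5:142960105-142960342 (Fscn1). Capitals mark motif matches on either strand: GGGCGG (GC box) and the CArG box of SRF in Vil1, ATGCAAA in Avil, and TGACGTCA and TATAAA in Fscn1.
Vil1: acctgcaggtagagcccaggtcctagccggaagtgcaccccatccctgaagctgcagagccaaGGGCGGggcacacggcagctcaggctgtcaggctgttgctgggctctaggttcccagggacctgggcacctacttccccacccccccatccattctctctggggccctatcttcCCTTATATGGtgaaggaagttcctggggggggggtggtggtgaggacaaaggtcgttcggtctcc
Avil: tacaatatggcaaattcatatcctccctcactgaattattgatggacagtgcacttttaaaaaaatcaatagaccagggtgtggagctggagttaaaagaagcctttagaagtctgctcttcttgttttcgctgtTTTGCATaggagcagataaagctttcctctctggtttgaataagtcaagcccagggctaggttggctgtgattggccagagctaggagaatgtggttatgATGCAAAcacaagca
Fscn1: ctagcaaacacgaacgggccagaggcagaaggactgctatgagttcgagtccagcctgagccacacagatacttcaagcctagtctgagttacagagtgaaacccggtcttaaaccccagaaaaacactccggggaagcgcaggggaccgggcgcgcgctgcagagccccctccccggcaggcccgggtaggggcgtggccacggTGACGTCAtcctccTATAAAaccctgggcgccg
Avil held 2 matches of ATGCAAA, 1 on each strand, and no match of the full octamer of POU factors, ATGCAAAT, which contains it. Pou2f3, the POU factor of tuft cells, lay between 446 and 517 CPM in thymic tuft and between 592 and 800.2 CPM in intestinal tuft cells. Over 32851 promoter windows of 250 bases, 32.7% held GGGCGG, 1.47% the CArG box, 4.12% ATGCAAA, 1.60% ATGCAAAT, 1.55% TGACGTCA and 12.4% TATAAA. The motifs ATGCAAA and TGACGTCA were chosen after the sequences had been seen. GGGCGG also lay in windows of Espn, Lcp1 and Pls3, and the windows of Pls1, Vill and Eps8l3 held none of the 6 motifs. A match is a description of these letters and not a measured binding site.

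Genes were tested with edgeR's quasi-likelihood test over all 10 libraries and called at a Benjamini-Hochberg adjusted p below 0.05. Between intestinal tuft cells and intestinal epithelium 8 of the 10 bundlers were called, where 22.3% of all genes were. Of these 4 were called higher (Vil1, Avil, Espn, Eps8l3), against 10.9% of all genes, and 4 lower (Vill, Pls3, Lcp1, Fscn1), against 11.4%, whereas Pls1 and Eps8 were not called. The call of Fscn1 was lost with shared counts taken away, and that of Vill without any 1 of 5 libraries. In thymic tuft against intestinal tuft cells all 10 were called, where 51.6% of all genes were: 4 were higher (Vill, Pls3, Lcp1, Fscn1), against 28.5%, and the other 6 lower, against 23.1%. In thymic tuft cells against intestinal epithelium 9 were called, where 50.9% of all genes were: 5 were higher (Avil, Pls3, Lcp1, Espn, Fscn1), against 28.6%, 4 were lower (Vil1, Pls1, Eps8, Eps8l3), against 22.3%, and Vill was not called. The 3 comparisons share libraries. The median log2 fold change of the bundlers was -0.18, -1.65 and 0.90 in that order, beside -0.10, 0.12 and 0.15 over all genes tested. Levels in both groups were free of overlap in 9 of 10 bundlers for intestinal tuft against intestinal epithelium (51.1% of all genes), in 10 of 10 for thymic against intestinal tuft (51.2%), and in 9 of 10 for thymic tuft against intestinal epithelium (55.5%).

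**Figure D1:**
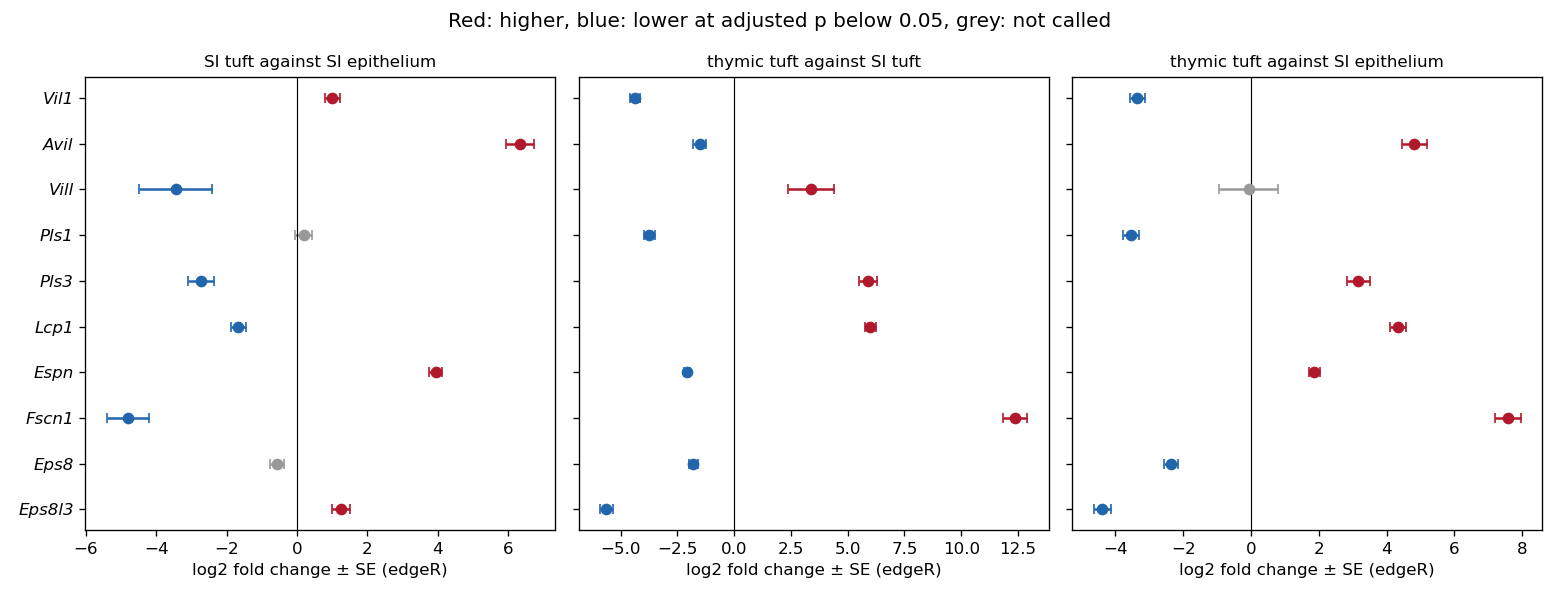
Fitted log2 fold change with its standard error (x axis) for each of the 10 bundlers (y axis) in the 3 comparisons, with red for genes called higher, blue for genes called lower and grey for genes not called. In the middle panel, thymic against intestinal tuft cells, Fscn1, Lcp1, Pls3 and Vill lie right of 0 and the other 6 lie left of it. The fitted value of Fscn1 there, 12.37, rests on 2 counts in intestinal tuft cells.

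Villin itself (Vil1, ENSMUSG00000026175, chromosome 1, 74409376 to 74435559, plus strand, GRCm38) was most abundant in intestinal tuft cells and least abundant in thymic tuft cells. Its level was 1217, 1284 and 1294 CPM in the intestinal epithelium libraries, 2400.0, 2508 and 2725 CPM in the intestinal tuft libraries, and 93.0, 172, 139 and 90.0 CPM in the thymic tuft libraries 1 to 4. No library of one group reached the range of another. The increase in intestinal tuft cells over intestinal epithelium was 1.01 on the log2 scale (SE 0.22, edgeR adjusted p = 0.00654). In thymic tuft cells Vil1 was lower than in intestinal tuft cells by 20.6-fold (log2 fold change -4.37, SE 0.23, adjusted p = 3.27e-08) and lower than in intestinal epithelium by 10.2-fold (log2 fold change -3.36, SE 0.22, adjusted p = 1.57e-07). Vil1 shares 49 exonic bases with Usp37 on the opposite strand, and the kit marks no strand.

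Advillin (Avil, ENSMUSG00000025432, chromosome 10, 127000709 to 127020994, plus strand) was far higher in both tuft populations than in the reporter-negative epithelium of the intestine. Its level was 22.5, 21.9 and 57.2 CPM in intestinal epithelium, 3224, 2599.5 and 2368 CPM in intestinal tuft cells, and 828, 890.1, 1010.3 and 1099 CPM in thymic tuft cells. All 7 tuft libraries stood far above all 3 epithelium libraries, and each intestinal tuft library stood above each thymic one. Per kilobase of exon, Avil ranked 38 of 15787 protein-coding genes tested in intestinal tuft cells and 49 in thymic tuft cells, and 3791 in intestinal epithelium. The log2 fold change was 6.33 for intestinal tuft against intestinal epithelium (SE 0.40, adjusted p = 3.15e-07), 4.82 for thymic tuft against intestinal epithelium (SE 0.36, adjusted p = 5.09e-07) and -1.51 for thymic against intestinal tuft cells (SE 0.29, adjusted p = 0.00105). Intestinal epithelium library 3 stood apart. It also held more Trpm5, the tuft cell cation channel, at 71.9 CPM against 32.8 and 30.5 CPM in libraries 1 and 2, and more Dclk1 (32.2 CPM against 26.1 and 24.4 CPM). The part of these in the Avil level of that library was not tested. Without that library the log2 fold changes were 6.94 and 5.42. With the shared counts taken away, 886, 800 and 3479 of the 1195, 1031 and 3775 Avil counts in intestinal epithelium libraries 1 to 3 remained. The log2 fold change of intestinal tuft cells against intestinal epithelium was then 6.55.

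Villin-like (Vill, ENSMUSG00000038775, chromosome 9, 119052778 to 119071525, plus strand), a family member of which less is known, was scarce everywhere. Its level was 1.51, 3.44 and 3.45 CPM in intestinal epithelium, 0.0486, 0.0817 and 0.634 CPM in intestinal tuft cells (2, 3 and 24 counts), and 1.92, 1.94, 5.03 and 1.84 CPM in thymic tuft cells. Intestinal tuft libraries lay below all others, and the ranges of intestinal epithelium and thymic tuft cells overlapped. The log2 fold change was -3.45 for intestinal tuft against intestinal epithelium (SE 1.04, adjusted p = 0.0325) and 3.39 for thymic against intestinal tuft cells (SE 1.01, adjusted p = 0.0146), and that of thymic tuft cells against intestinal epithelium was -0.06 (SE 0.87, adjusted p = 0.961). The first call was lost without intestinal epithelium library 1, 2 or 3 or intestinal tuft library 2 or 3 (adjusted p 0.000539 to 0.114 over all alternatives), and the second without intestinal tuft library 2 or 3 (3.83e-05 to 0.0595). Without intestinal tuft library 4 the values were -5.38 and 5.31. With the share of the other libraries taken away, both calls stood (-3.45 and 3.46, edgeR adjusted p = 0.0383 and 0.0152).

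**Figure D2:**
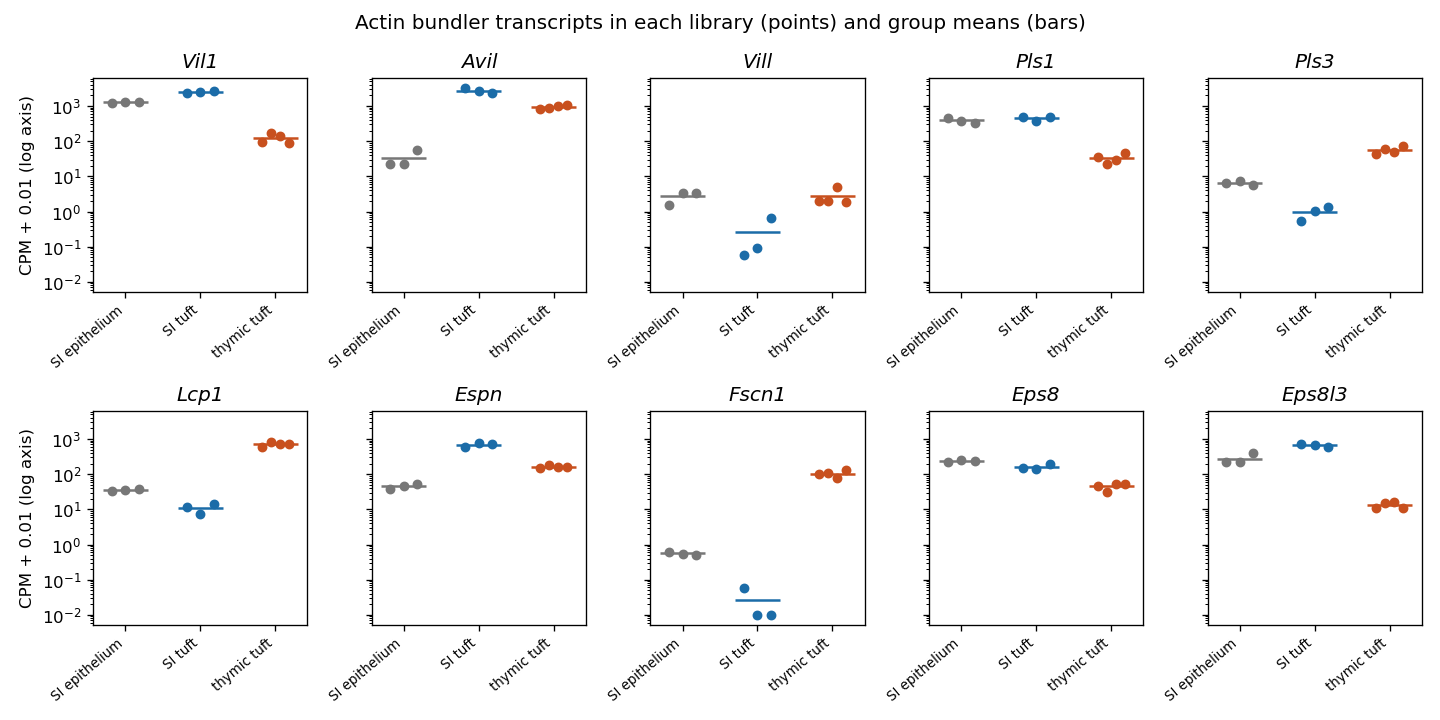
Level of each bundler in every library, as CPM plus 0.01 on a log axis (y axis), for the 3 intestinal epithelium, 3 intestinal tuft and 4 thymic tuft libraries (x axis), where points are libraries and bars are group means. Avil sits at 828 CPM or above in all 7 tuft libraries, whereas Lcp1 and Fscn1 are high in the thymic tuft libraries and low in both intestinal groups.

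Within the villin family, levels were set against each other per kilobase of exon, as each gene's share of the family sum. Vil1 made up 98.0%, 98.0% and 95.4% of the family in intestinal epithelium, 41.6%, 48.0% and 52.4% in intestinal tuft cells and 9.69%, 15.6%, 11.6% and 7.26% in thymic tuft cells. Avil made up almost all of the rest, 2.68% ± 1.49 (SD, n = 3), 52.7% ± 5.44 (n = 3) and 88.8% ± 3.53 (n = 4) in the same order, and Vill made up at most 0.338% in any library. The groups did not overlap in the share of Vil1 or of Avil. In intestinal tuft cells themselves the levels of both genes overlapped, with Avil at 804 ± 130 and Vil1 at 717 ± 46.6 CPM per kilobase (SD, n = 3). With 3 libraries against 3 an exact two-sided permutation test cannot go below p = 0.1, and with 3 against 4 not below 0.0571. Both shares reached these smallest values (adjusted over 54 tests of shares, 0.108 and 0.0964), so none passes 0.05.

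Plastin 1 (Pls1, also called fimbrin, ENSMUSG00000049493, chromosome 9, 95752642 to 95845311, minus strand), the brush border plastin, was abundant in both intestinal groups. Its level was 463, 385 and 336 CPM in intestinal epithelium, 481, 375 and 502 CPM in intestinal tuft cells and 36.4, 23.0, 29.6 and 47.2 CPM in thymic tuft cells. The intestinal groups overlapped, and their log2 difference of 0.20 (SE 0.24, adjusted p = 0.614) was within the spread between libraries. Thymic tuft libraries lay below every intestinal library, at 13.3-fold less than intestinal tuft cells (log2 fold change -3.73, SE 0.24, adjusted p = 1.45e-07) and 11.6-fold less than intestinal epithelium (log2 fold change -3.54, SE 0.24, adjusted p = 2.07e-07).

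L-plastin (Lcp1, ENSMUSG00000021998, chromosome 14, 75131101 to 75230842, plus strand) had the opposite order. Its level was 33.4, 35.5 and 36.8 CPM in intestinal epithelium, 11.6, 7.54 and 14.1 CPM in intestinal tuft cells and 600.0, 796, 727 and 720.3 CPM in thymic tuft cells. No library of one group reached another group's range. Lcp1 was 64.1-fold higher in thymic than in intestinal tuft cells (log2 fold change 6.00, SE 0.25, adjusted p = 7.14e-09), 20.2-fold higher in thymic tuft cells than in intestinal epithelium (4.33, SE 0.23, adjusted p = 3.63e-08), and lower in intestinal tuft cells than in intestinal epithelium (-1.67, SE 0.21, adjusted p = 0.000122). T-plastin (Pls3, ENSMUSG00000016382, chromosome X, 75785654 to 75875182, minus strand), the plastin of many solid tissues, had the same order at lower levels. It measured 6.36, 7.13 and 5.68 CPM in intestinal epithelium, 0.510, 1.03 and 1.35 CPM in intestinal tuft cells and 43.4, 61.7, 49.8 and 74.6 CPM in thymic tuft cells. Those groups did not overlap either. Its log2 fold change was 5.90 for thymic against intestinal tuft cells (SE 0.40, adjusted p = 2.33e-07), 3.17 for thymic tuft cells against intestinal epithelium (SE 0.34, adjusted p = 1.11e-05) and -2.73 for intestinal tuft cells against intestinal epithelium (SE 0.36, adjusted p = 0.000173). With the shared counts taken away the Pls3 values were 5.98, 3.30 and -2.68. For Lcp1 the value of intestinal tuft cells against intestinal epithelium was then -1.51.

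Markers of other cell types also differed between the groups. The 8 myeloid and dendritic cell markers summed to 217 to 280.1 CPM in thymic tuft libraries, none at 0 in all of them, to 12.6 to 43.2 CPM in intestinal tuft libraries, where Flt3, Xcr1 and Ccr7 were at 0, and to 12.8 to 18.6 CPM in intestinal epithelium. Lyz2 made up most of this in the thymus, at 183 ± 19.0 CPM (SD, n = 4). The 4 B cell markers summed to 21.2 to 36.8 CPM in thymic and 1.69 to 3.26 CPM in intestinal tuft libraries. Ptprc, which codes for the CD45 used to gate blood cells out, was lower in the thymic libraries (49.3 to 71.7 CPM) than in the intestinal tuft libraries (136 to 176 CPM), and so was the sum of 7 T cell markers (8.93 to 22.9 against 24.6 to 34.4 CPM). Fibroblast and endothelium markers summed to 12.6 to 129 CPM in thymic and 1.39 to 2.61 CPM in intestinal tuft libraries. In thymic tuft libraries 1 to 4 these fibroblast and endothelium sums were 46.0, 12.6, 48.6 and 129 CPM. The myeloid and dendritic sums were 217, 280.1, 269 and 267 CPM in the same order. The part of such cells in the Lcp1 and Pls3 levels was not tested.

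As shares of the summed CPM per kilobase of exon of the plastins, Pls1 took 95.95%, 94.8% and 94.3% in intestinal epithelium and 98.9%, 98.9% and 98.6% in intestinal tuft cells, but 11.3%, 5.67%, 7.93% and 11.5% in thymic tuft cells. Lcp1 took 77.1% ± 3.94 (SD, n = 4) and Pls3 13.8% ± 2.06 in the thymic libraries, against 0.976% ± 0.159 and 0.197% ± 0.0869 in intestinal tuft cells (n = 3). The groups did not overlap in any plastin's share, with the exact permutation p at its smallest in each comparison. The value for Lcp1 depends on the length it is divided by, since its annotated exons cover 9504 bases and its longest transcript 3841. With the longest transcript Lcp1 took 87.3% of the plastins in thymic tuft cells, 2.27% in intestinal tuft cells and 7.94% in intestinal epithelium.

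**Figure D3:**
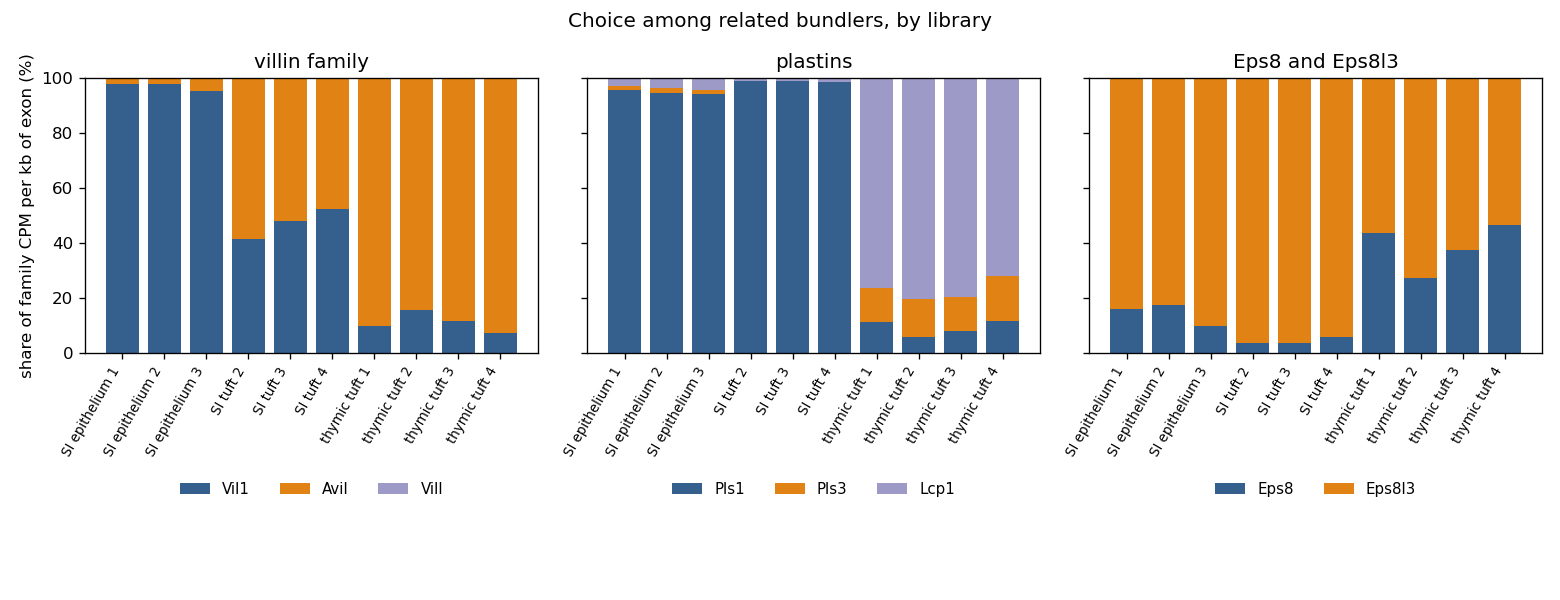
Share of each gene in the summed CPM per kilobase of exon of its family (y axis, percent) in each library (x axis), for the villin family, the plastins, and Eps8 with Eps8l3. Vill is present in the left panel at no more than 0.338% and is too thin to be seen. The family passes from Vil1 in intestinal epithelium to a near-even mixture with Avil in intestinal tuft cells and to Avil in thymic tuft cells, and the main plastin is Pls1 in both intestinal groups and Lcp1 in the thymus.

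Espin (Espn, ENSMUSG00000028943, chromosome 4, 152120331 to 152152371, minus strand), a bundler known from microvilli and from the stereocilia of hair cells, was high in both tuft populations. It measured 38.9, 44.7 and 51.3 CPM in intestinal epithelium, 583, 761 and 729.6 CPM in intestinal tuft cells and 153, 187, 160.3 and 157 CPM in thymic tuft cells. Every intestinal tuft library was above every thymic one, and every thymic one above the epithelium. The log2 fold change was 3.94 for intestinal tuft cells against intestinal epithelium (SE 0.18, adjusted p = 2.16e-08), -2.07 for thymic against intestinal tuft cells (SE 0.15, adjusted p = 4.14e-07) and 1.87 for thymic tuft cells against intestinal epithelium (SE 0.16, adjusted p = 1.53e-06). Avil and Espn were the only 2 of the 10 with the order intestinal tuft, thymic tuft, intestinal epithelium.

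Fascin (Fscn1, ENSMUSG00000029581, chromosome 5, 142960343 to 142973185, plus strand) was abundant in the thymic group, low in intestinal epithelium and below the floor of 3 counts in intestinal tuft cells. It measured 99.2, 111, 78.2 and 128 CPM in thymic tuft cells and 0.621, 0.531 and 0.485 CPM in intestinal epithelium, and intestinal tuft libraries 2, 3 and 4 held 2, 0 and 0 counts. The thymic libraries thus stood alone. Over the groups, 24091 counts in thymic tuft libraries stood against 2 in intestinal tuft libraries, which after scaling for library size is a ratio of 5909 (95% interval 1636 to 48793, for counting error only, edgeR adjusted p = 8.98e-09). The fitted log2 fold change of 12.37 became 15.42 without intestinal tuft library 2, the one with 2 counts. Intestinal epithelium held 33, 25 and 32 counts, of which 9, 0 and 0 remained after the largest share of a thymic library was taken away. In intestinal epithelium library 1 smaller fitted shares of thymic libraries 1 and 2, 0.0560% and 0.0590%, were left in. Their part in the 9 counts was not tested. The lower level in intestinal tuft cells than in intestinal epithelium (edgeR adjusted p = 0.000117) was lost after this subtraction (adjusted p = 0.512, with 2.37e-05 to 0.512 over all alternatives). The fitted log2 fold change of thymic tuft cells against intestinal epithelium, 7.57 (SE 0.38, adjusted p = 2.67e-08), became 10.90. That value rests on the 9 counts. Dendritic cells also express fascin. The sum of 8 myeloid and dendritic markers given for the plastins does not measure dendritic cells alone. Lyz2 and Itgam were its highest members in thymic tuft libraries, at 183 ± 19.0 and 31.2 ± 23.2 CPM (SD, n = 4). Of the 8 markers, 2 averaged below 1 CPM there. The part of dendritic cells in the Fscn1 level was not tested.

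Eps8 (ENSMUSG00000015766, chromosome 6, 137477245 to 137654876, minus strand) had the smallest fold between its highest and its lowest group mean of the 10 members, 5.14. It measured 225, 248 and 233 CPM in intestinal epithelium, 147, 141 and 189.5 CPM in intestinal tuft cells and 45.8, 30.8, 54.2 and 52.5 CPM in thymic tuft cells. The groups did not overlap, and the order ran from intestinal epithelium through intestinal tuft to thymic tuft cells. Its log2 fold change was -0.57 for intestinal tuft cells against intestinal epithelium (SE 0.21, adjusted p = 0.0763, not called), -1.79 for thymic against intestinal tuft cells (SE 0.20, adjusted p = 1.21e-05) and -2.36 for thymic tuft cells against intestinal epithelium (SE 0.20, adjusted p = 1.30e-06). The uncalled value passed when only both intestinal groups were fitted (adjusted p = 0.0113) or with a stricter filter (0.0463), with 0.0113 to 0.230 over all alternatives.

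Eps8l3 (ENSMUSG00000040600, chromosome 3, 107877229 to 107892900, plus strand) measured 219, 214 and 401 CPM in intestinal epithelium, 709, 686 and 577 CPM in intestinal tuft cells and 10.8, 15.0, 16.5 and 11.045 CPM in thymic tuft cells. Intestinal epithelium library 3 was the highest of its group, as it was for Avil, but below all intestinal tuft libraries. Eps8l3 was higher in intestinal tuft cells than in intestinal epithelium by 1.24 (log2, SE 0.26, adjusted p = 0.00416). It was 49.2-fold lower in thymic than in intestinal tuft cells (log2 fold change -5.62, SE 0.27, adjusted p = 2.01e-08) and 20.8-fold lower than in intestinal epithelium (-4.38, SE 0.26, adjusted p = 8.04e-08). An antisense gene, 4933431E20Rik, overlaps 964 of its 2271 exonic bases. It held 13.3% and 13.5% as many counts as Eps8l3 in intestinal epithelium and intestinal tuft cells, but 17.8%, 52.1%, 33.4% and 17.2% in thymic tuft libraries 1 to 4, 31.9% over the group. Without strand these reads cannot be told apart, so the level of Eps8l3 is uncertain, and most so in the thymus. With the shared counts taken away, 426, 701, 1035 and 581 of the 658, 798, 1142 and 581 counts in thymic tuft libraries 1 to 4 remained, and the log2 fold changes against intestinal tuft cells and intestinal epithelium were -5.75 and -4.52. Nothing was taken from thymic tuft library 4 by design. The genes behind the share of epithelium counts were chosen as low in that library, so its own share was not measured. The sum of 10 enterocyte markers followed the same order as Eps8l3, Vil1 and the group means of Pls1. It was 16705 to 18258 CPM in intestinal epithelium, 31929 to 35689 CPM in intestinal tuft cells and 213 to 428 CPM in thymic tuft cells. None was at 0 in a whole group. Of the 10 markers, 2 were called higher in intestinal tuft cells than in intestinal epithelium, against 10.9% of all genes, and 8 were not called. The part of enterocytes in the levels of Eps8l3, Vil1 and Pls1 was not tested.

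Of the pair, Eps8l3 made up 85.6% ± 4.18 (SD, n = 3) in intestinal epithelium, 95.7% ± 1.18 (n = 3) in intestinal tuft cells, and the thymic tuft libraries averaged 61.2% ± 8.54 (n = 4), per kilobase of exon. The groups did not overlap, and exact permutation p-values were at their smallest. Which of the pair leads in the thymus depends on length. With the longest transcript, which is 4567 bases for Eps8 where its exons cover 12355, Eps8l3 made up 37.4% there.

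Summed over the 10 genes, bundler transcripts stood at 621 ± 47.5 CPM per kilobase in intestinal epithelium (SD, n = 3), 2024 ± 105 in intestinal tuft cells (n = 3) and 478 ± 47.0 in thymic tuft cells (n = 4). Intestinal tuft libraries lay apart from 1953 to 2144. The epithelium (593 to 676) and the thymic libraries (413 to 525) did not overlap, but they did when the longest transcript was used (687 to 775 and 568 to 713). Vil1 held 57.6% of the sum in intestinal epithelium, 35.5% in intestinal tuft and 7.29% in thymic tuft cells. Avil held 1.56%, 39.6% and 58.8%. In the thymus Lcp1 followed with 15.7% and Fscn1 with 7.25%, and Eps8l3 held 19.4%, 14.3% and 1.23% in the 3 groups. Espn held 4.16% in intestinal tuft and 4.17% in thymic tuft cells, shares that overlapped (exact permutation p = 0.971).

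Other actin genes were taken from 7 lists by role. Their counts stand beside the shares of all genes tested. In intestinal tuft cells against intestinal epithelium 10.9% of all genes were called higher and 11.4% lower. In thymic against intestinal tuft cells these shares were 28.5% and 23.1%. Of each list the largest called increase and decrease are named among genes with at least 10 CPM in the higher of both groups, and larger changes of scarcer genes stand outside this choice. Of 5 other villin and gelsolin family members, 3 were higher and 2 lower in intestinal tuft cells than in intestinal epithelium, and again 3 and 2 in thymic against intestinal tuft cells. Capg, which caps filament ends, was the largest increase of the first comparison (5.56 ± 1.57 to 32.1 ± 3.59 CPM, log2 fold change 2.53). Gsn, which severs filaments, was the largest decrease there (30.5 ± 2.93 to 7.97 ± 1.54 CPM, -1.94) and the largest increase in the thymus (to 135 ± 27.8 CPM, 4.09). Scin, the severing protein adseverin, was lower in the thymus (27.9 ± 3.27 to 5.78 ± 1.49 CPM, -2.27).

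Of 12 other bundlers and cross-linkers 10 could be tested. Of these, 1 was higher and 2 lower in intestinal tuft cells than in intestinal epithelium, where 22.3% of all genes were called. In thymic against intestinal tuft cells 7 were higher and 2 lower, where 51.6% of all genes were called. The median log2 fold change was 3.08, beside 0.12 over all genes. Among those called higher, Flnc and Espnl averaged 0 CPM in intestinal tuft cells, Fscn2 0.0363 and Actn3 0.219 CPM. Genes so scarce there could hardly be called lower, and their fitted values of 5.50 to 10.6 raise the list median. Lima1, which stabilises filament bundles, was higher in intestinal tuft cells than in intestinal epithelium (661 ± 81.7 to 1668 ± 54.1 CPM, 1.34), and Flna, the cross-linker filamin A, was lower (11.8 ± 1.97 to 4.60 ± 2.52 CPM, -1.35). Alpha-actinins went apart between the tuft populations. Actn4, the non-muscle form, was lower in the thymus (1003 ± 41.4 to 252 ± 24.3 CPM, -1.99), and Actn3, the form of fast muscle fibres, was higher (0.219 ± 0.379 to 65.6 ± 10.3 CPM, 8.16).

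Of 6 linkers of filaments to the membrane, 2 were higher in intestinal tuft cells than in intestinal epithelium, where 22.3% of all genes were called, and 3 were higher and 3 lower in thymic than in intestinal tuft cells, where 51.6% were. Rdx, which codes for radixin, was the largest increase of intestinal tuft cells (0.684 ± 0.163 to 17.5 ± 3.99 CPM, 4.68). Msn, which codes for the related moesin, was the largest increase of the thymus (4.65 ± 2.90 to 545 ± 29.0 CPM, 6.87), and Pdzk1, a scaffold of the brush border membrane, the largest decrease (33.2 ± 12.7 to 0.782 ± 0.983 CPM, -5.40). Of 8 relatives and partners of Eps8, 0 were called between intestinal tuft cells and intestinal epithelium by edgeR over all 10 libraries (3 at an unadjusted p below 0.05), 1 was called by DESeq2, and 2 were higher and 3 lower when edgeR was fitted on these 2 groups alone. In the tuft comparison 1 was higher and 4 were lower in thymic than in intestinal tuft cells. Baiap2, which binds Eps8 and bends membranes, was the increase (5.43 ± 3.13 to 40.7 ± 6.67 CPM, 2.90), and its epithelial relative Baiap2l2 the largest decrease (85.4 ± 4.76 to 2.21 ± 1.52 CPM, -5.26).

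Among genes for actin itself, Actb, the main non-muscle actin, measured 2165 ± 403, 2567 ± 204 and 2372 ± 322 CPM in intestinal epithelium, intestinal tuft and thymic tuft cells and was not called in any comparison (adjusted p = 0.339, 0.575 and 0.511, and it was chosen after its values had been seen). Of the 6 actins 0 were called between intestinal tuft cells and intestinal epithelium by edgeR over all 10 libraries (1 at an unadjusted p below 0.05) and 0 by DESeq2, whereas edgeR fitted on these 2 groups alone called 1 higher, Actg1. In thymic against intestinal tuft cells 3 were higher, also by DESeq2, and 2 lower, Actg1 and Acta1, of which DESeq2 called 0. Acta2, the smooth muscle actin, was the largest increase there among those at 10 CPM or more (0.127 ± 0.0701 to 27.4 ± 17.1 CPM, 7.71), where fibroblast and endothelium markers were also higher. Their part was not tested. Acta1 was the largest decrease (63.0 ± 27.9 to 7.73 ± 11.1 CPM, -3.03). Actin genes are near-identical to each other, so the split of reads among them is uncertain. Of 21 genes of filament assembly, 5 were higher and 4 lower in intestinal tuft cells than in intestinal epithelium, where 22.3% of all genes were called. In thymic against intestinal tuft cells 2 were higher and 9 lower, where 51.6% of all genes were called. The capping protein gene Capzb was the largest decrease there (507 ± 59.6 to 140.2 ± 21.1 CPM, -1.85). Add1, which codes for an adducin, was the largest increase at 10 CPM or more (81.1 ± 10.5 to 140.9 ± 21.6 CPM, 0.80). The scarce profilin gene Pfn2, named after its values had been seen, was called higher there by more (0.0517 ± 0.0261 to 9.41 ± 4.58 CPM, 7.44). In intestinal tuft cells against the epithelium Twf2, which binds actin monomers, rose the most (7.57 ± 2.37 to 28.9 ± 4.53 CPM, 1.93) and Add3, another adducin, fell the most among genes at 10 CPM or more (198 ± 11.2 to 74.6 ± 5.33 CPM, -1.41). Pfn2 fell further (-3.62), from 0.663 ± 0.198 CPM. Of 4 tropomyosins, 1 was lower in intestinal tuft cells than in intestinal epithelium (Tpm4, 157 ± 25.9 to 52.1 ± 4.33 CPM, -1.59), and 2 were higher and 1 was lower in the thymus, where Tpm2 rose the most (3.52 ± 1.52 to 91.6 ± 18.6 CPM, 4.70) and Tpm1 fell (488 ± 53.1 to 274 ± 30.1 CPM, -0.83).

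Thymic tuft cells against intestinal epithelium, a comparison that shares its libraries with both others, gave 3 higher and 1 lower of the 5 villin and gelsolin relatives, 5 and 2 of the 10 bundlers and cross-linkers, 2 and 3 of the 6 membrane linkers and 2 and 4 of the 8 Eps8 relatives. It gave 3 and 1 of the 6 actins, 3 and 9 of the 21 assembly genes, and 1 and 2 of the 4 tropomyosins. Over all genes tested it called 28.6% higher and 22.3% lower. Among genes at 10 CPM or more, its largest increases were Capg (3.22), Actn3 (7.08), Baiap2 (2.23), Msn (7.04), Acta2 (7.17), Twf2 (1.51) and Tpm2 (5.12), and its largest decreases Scin (-4.09), Actn4 (-1.64), Baiap2l2 (-6.66), Pdzk1 (-4.68), Acta1 (-3.56), Add3 (-2.45) and Tpm1 (-0.94), as log2 fold changes of the 7 lists. Below that level Pfn2 (3.82), Actc1 (6.29), Actg2 (5.24) and Flnc (listed at 0 in all intestinal libraries) were also called higher. With DESeq2 size factors 4 assembly genes were higher and 6 lower there.

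**Figure D4:**
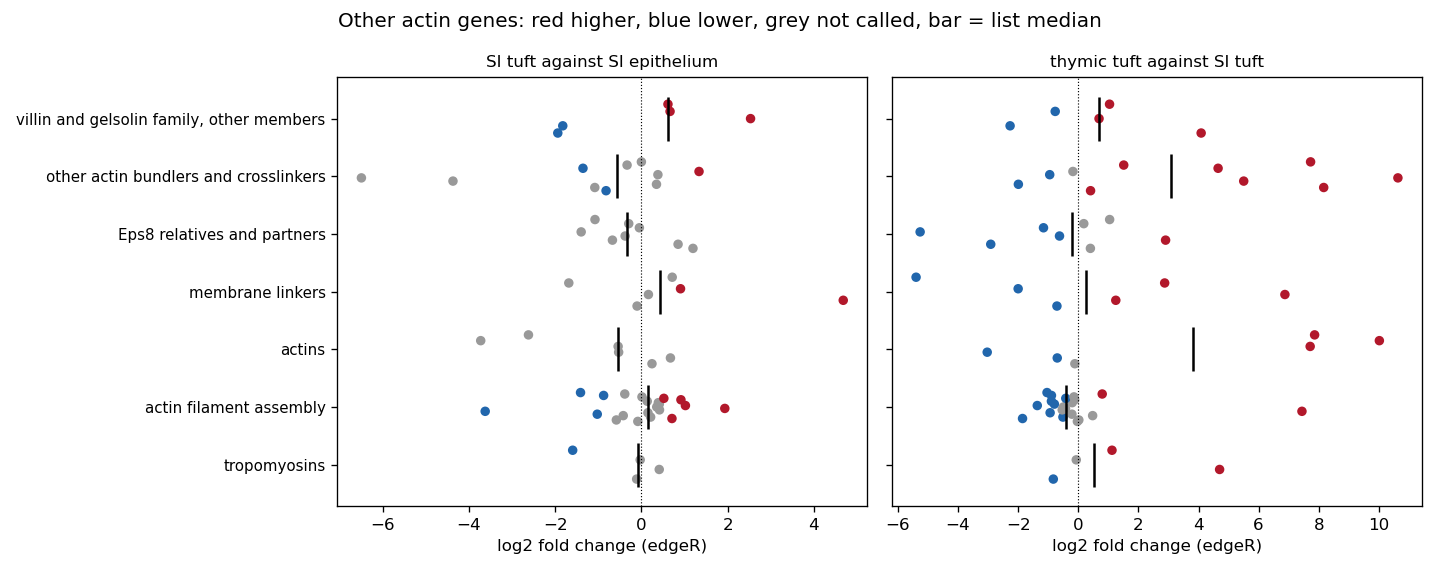
Fitted log2 fold change (x axis) of each tested actin gene outside the 10 bundlers, by list (y axis), for intestinal tuft cells against intestinal epithelium and thymic against intestinal tuft cells, where each point is a gene and the bar is the list's median. In the right panel 7 of the 10 other bundlers and cross-linkers lie right of 0 and were called, where 28.5% of all genes were called higher. Flnc, Espnl, Fscn2 and Actn3 among them had almost no counts in intestinal tuft cells. Of the 21 filament assembly genes 9 were called lower, where 23.1% of all genes were.

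The genes whose levels followed each bundler most closely were taken as the 3 highest Pearson correlations of log2 CPM over the 10 libraries among 11033 genes (11034 for Vill) with at least 10 CPM in a group. All points come from 3 groups, so the values mostly restate each group's level, and they are given as a description. For Avil they were Alox5, the leukotriene-producing lipoxygenase, Il17rb, a subunit of the interleukin-25 receptor, and Tmem176b (r = 0.996, 0.995 and 0.995). Lcp1 was followed most closely by Cxcl1, Iigp1 and Aire, the regulator of medullary thymic epithelium (0.998, 0.997 and 0.997), and Fscn1 by Ptprq, Skint10 and Ldhb (0.998, 0.997 and 0.997). For Pls3 they were Gsn, Sntb1 and Pam (0.996, 0.996 and 0.994). Vil1 came closest to Ech1, Cyp4v3 and Plekhg6 (0.995, 0.995 and 0.994), Pls1 to Abcd3, Il18 and Sucla2 (0.996, 0.995 and 0.995), and Eps8l3 to Acp6, AA986860 and Ms4a8a (0.998, 0.997 and 0.996). Espn came closest to Aldh2, Snrnp25 and Gabarap (0.995, 0.993 and 0.992), Eps8 to Prdx1, Ano9 and Fads1 (0.992, 0.989 and 0.988) and Vill to Epb41l5, Ccl9 and Nup210 (0.961, 0.956 and 0.953).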

How the data were processed

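Poly(A) RNA from sorted cells had been amplified with NuGEN Ovation V2 and prepared with Nextera XT, per the labels' protocols. Gene counts were deposited by the authors for 10 libraries. Per the submitters' processing notes STAR and DESeq2 were used with GRCm38, and versions and the counting annotation are not given in the sources used here. Per the series' design text, 1 intestinal tuft and 1 intestinal epithelium library had been discarded for quality.

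Symbols, lengths and coordinates came from GENCODE M21, where 42548 of 43432 identifiers were found. Counts were filtered with filterByExpr (minimum count 10, total 15) and scaled by TMM (factors 0.661 to 1.43). All libraries entered 1 fit of edgeR's quasi-likelihood model, adjusted over 19281 genes. CPM use the scaled library sizes, and shares divide CPM by the union of exon lengths. Versions were edgeR 4.0.16 and DESeq2 1.42.0 under R 4.3.3. On simulated counts, 21%, 28% and 27% of 100 genes changed 2-fold and 90%, 91% and 90% of those changed 4-fold were recovered (intestinal tuft against intestinal epithelium, thymic against intestinal tuft, thymic tuft against intestinal epithelium, over 18751, 18753 and 18728 genes), with 4.31%, 5.56% and 3.31% of calls false. No other genes were changed, and scarce genes were left out of the draw. In the data 22.3% to 51.6% of genes were called, so these rates need not hold there.

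The 10 genes and all lists were chosen with earlier results of these data known. All 10 were described. Of each other actin list the largest called increase and decrease with at least 10 CPM in the higher group were named, and per bundler the 3 genes most alike. Of marker lists the 2 most abundant genes could be named. Pou2f3, Ptprc, Actb, Actg1, Actc1, Actg2, Pfn2, Flnc, Espnl and Fscn2 were named after their values were seen. Alternatives were other scalings, filters and tests, subtraction of shared counts, other lengths, a replicate block, a fit of both groups alone, removal of mitochondrial genes and removal of each library.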

Additional observations from a re-analysis of the deposited data

Results flagged for a closer look

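Vill in thymic tuft cells was the 1 of 10 bundlers with a thymic library far from the others: library 3 stood at 5.03 CPM and libraries 1, 2 and 4 between 1.84 and 1.94 CPM, so that the gap made up 0.970 of the range of the group. Chance marks about 1 in 20 groups in this way, and 10 were examined.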

How the results depend on the processing

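The counts of bundlers called in each direction stayed within 1.5 times of those reported under every alternative. Of the 4 called lower in intestinal tuft cells against intestinal epithelium, 3 stayed with shared counts subtracted, where Fscn1 was lost. With both groups fitted alone 5 were lower. When each library was left out in turn, 4 were higher and 3 to 4 lower in intestinal tuft cells against intestinal epithelium, 3 to 4 higher and 6 lower in thymic against intestinal tuft cells, and 5 higher and 4 lower in thymic tuft cells against intestinal epithelium. The share of Avil in the villin family ranged over 1.82% to 3.15%, 49.8% to 55.2% and 87.5% to 90.3% in intestinal epithelium, intestinal tuft and thymic tuft cells. Shares moved with gene length. For Lcp1 among the plastins they were 8.23%, 2.35% and 88.6% with no division by length, and 7.94%, 2.27% and 87.3% with the longest transcript. For Eps8l3 they were 53.0%, 80.4% and 23.2%, and 69.1%, 89.1% and 37.4%.

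The log2 difference of Vill between thymic tuft cells and intestinal epithelium, never called, turned sign with DESeq2 size factors (0.16), the DESeq2 Wald test (0.16), subtraction of shared counts (0.0088), and without any 1 of 5 libraries, over -0.54 to 0.11 when each was left out. Vill could not be fitted under the filter of 10 CPM in 3 libraries. Over all genes, a fit of both groups alone called 3475 higher and 3513 lower in intestinal tuft cells against intestinal epithelium, where 2101 and 2199 were called over all 10 libraries. Without intestinal epithelium 1 or 2 the lower calls were 1426 and 1432. The stricter filter called 3289 genes higher in thymic against intestinal tuft cells in place of 5492, and 3536 in thymic tuft cells against intestinal epithelium in place of 5514. DESeq2 size factors moved the median of all genes by 0.24 and 0.23 (log2) in both thymic comparisons, and the cause of these shifts was not tested.

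Replicate numbers are shared between groups, and the labels do not say whether a number marks a shared mouse or day. Correlations of deviations from group means ran from -0.04 to 0.13 for same-numbered libraries. For differently numbered ones they ran from -0.0844 to 0.0996. The highest value of each kind came from a pair with shared counts. With 3 or 4 libraries per group these values cannot decide whether the libraries are paired. A replicate block changed no bundler's call. With the block 1637 genes were higher and 1565 lower in intestinal tuft cells against intestinal epithelium, 4767 and 4172 in thymic against intestinal tuft cells, and 4889 and 4092 in thymic tuft cells against intestinal epithelium.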
